A study of Mus musculus with 8 samples.

Results

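The mouse collagen genes were every entry whose gene symbol reads Col, digits, a, digits, and 44 of the 39009 entries fit that pattern. By class, 11 were fibrillar, 6 basement membrane, 9 FACIT and 18 other types. Of these, 35 reached an FPKM (a level scaled to transcript length and to the fragments mapped in the library) of 1 in at least 1 library and were tested: 11 fibrillar, 4 basement membrane, 7 FACIT and 13 other. The remaining 9 (Col4a3, Col4a4, Col6a4, Col6a5, Col7a1, Col9a1, Col10a1, Col20a1 and Col28a1) stayed under FPKM 1 in all 8 libraries and are described by level only.

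Collagens are secreted proteins whose chains wind into a triple helix, and they are the main structural proteins of the extracellular matrix. Fibrillar collagens build the fibers of connective tissue, basement membrane (type IV) collagens form the sheet under epithelia and around vessels, and FACIT collagens (fibril-associated collagens with interrupted triple helices) sit on fibril surfaces. Fibroblasts and other mesenchymal cells make most fibrillar collagen, whereas epithelial and early embryonic cells make mainly type IV chains.

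The study sequenced RNA from chemically induced pluripotent stem cells (CiPSCs), which were made from somatic cells with small molecules, and from their source cells. Neural stem cells (NSC, cultured to passage 2) and small intestinal epithelial cells (IEC, primary) came from E13.5 embryos and gave 1 library each. NSC-CiPSC lines 1, 2 and 3 and IEC-CiPSC lines 10 and 13 gave 1 library each, and the R1 line of embryonic stem cells (ESC) gave 1. NSC, IEC and all 5 lines carry strain labels of the form C57BL/6J-Tg(GOFGFP)11Imeg/RbrcxICR, with the number before Imeg running from 11 to 17 over the 7 samples, and ESC are 129X1 x 129S1. GOFGFP is a GFP transgene that the source cells and lines share and that the ESC label does not name, so strain and transgene cannot be told apart from the difference between lines and ESC. The labels do not name the compounds, nor say whether lines of one origin came from separate cultures or animals, and p-values then reflect variation among these lines, which may be technical.

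Estimated depth ran from 8815652 to 10119277 fragments a library, and below FPKM 1 many deposited 95% intervals reach 0. All 8 pluripotency markers were at FPKM 10 or more in every CiPSC line and in ESC, and all 8 neural stem markers were in NSC. In IEC, 1 of 9 intestinal epithelial markers reached FPKM 10 and Muc2, the goblet cell mucin, was listed at 0. The same library held FPKM 10 or more for 9 of 11 fibroblast, 7 of 8 smooth muscle, 6 of 8 leukocyte and 7 of 7 hepatocyte markers. In bulk RNA such as this, fewer cells of a type and less RNA per cell cannot be told apart.

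Promoter sequence is shown for 4 members that the results turn on: the 3 fibrillar genes Col1a2, Col3a1 and Col5a1, which differed between lines of NSC and IEC origin, and Col18a1, the member with the highest level in all pluripotent lines. Each is the stretch in no annotated exon within the 250 bases before a RefSeq start (GRCm38.p6, coordinates from 1, read 5′ to 3′ on the gene's strand), and capitals mark the motif CCAAT (the reverse strand reads ATTGG), the GC box GGGCGG (reverse strand CCGCCC) or the motif TATAAA.
Col1a2, chr6:4505370-4505492, plus strand: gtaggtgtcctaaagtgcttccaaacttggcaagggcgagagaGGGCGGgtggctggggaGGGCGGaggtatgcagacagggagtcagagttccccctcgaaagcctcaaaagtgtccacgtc
Col3a1, chr1:45311288-45311537, plus strand: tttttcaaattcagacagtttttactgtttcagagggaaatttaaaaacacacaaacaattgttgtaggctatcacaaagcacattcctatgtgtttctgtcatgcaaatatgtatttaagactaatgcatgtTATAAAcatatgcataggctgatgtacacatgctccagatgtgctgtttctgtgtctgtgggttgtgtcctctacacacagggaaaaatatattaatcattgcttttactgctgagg
Col5a1, chr2:27886175-27886424, plus strand: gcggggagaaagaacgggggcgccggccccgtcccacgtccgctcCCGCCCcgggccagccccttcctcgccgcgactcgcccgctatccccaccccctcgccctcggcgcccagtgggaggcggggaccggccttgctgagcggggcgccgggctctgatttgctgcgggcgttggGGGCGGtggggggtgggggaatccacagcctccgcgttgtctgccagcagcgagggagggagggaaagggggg
Col18a1, chr10:77166549-77166780, minus strand: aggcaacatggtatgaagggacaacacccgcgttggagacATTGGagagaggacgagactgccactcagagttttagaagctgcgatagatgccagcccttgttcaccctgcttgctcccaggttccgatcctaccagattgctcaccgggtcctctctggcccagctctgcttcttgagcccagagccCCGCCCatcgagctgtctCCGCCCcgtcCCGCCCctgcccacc
The Col3a1 window was AT-rich (35.2% G or C) with a single TATAAA 117 bases before the start. By contrast, the Col5a1 window was 76.4% G or C with CCGCCC at 205 bases and GGGCGG at 73. Col18a1 had CCGCCC at 61, 43 and 33 bases and ATTGG at 210. The window of another RefSeq start of Col18a1 (chr10:77113706-77113955, not printed) held none of these motifs, and 241 of its bases lay in annotated exon. FPKM per gene does not show which start was used. Col1a2 had GGGCGG at 205 and 188 bases and, inside a stretch that GENCODE M21 annotates as exon and that is not printed, CCAAT at 109 bases. The RefSeq start used for Col1a2 lies downstream of the start of its deposited entry. Over all 32851 promoters in the RefSeq table, on either strand, CCAAT stood in 33.8%, GGGCGG in 32.7% and TATAAA in 12.4% of the 250-base windows, and bases shared by overlapping motifs count for each. Over the 38 windows of 35 collagen genes the shares were 34.2%, 57.9% and 13.2%, beside a median G or C content of 59.0% for these windows and 52.4% for all. These matches describe letters and not binding.

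Collagen transcripts were abundant in IEC and scarce in every other library. The FPKM of all 44 genes summed to 7883 in IEC, 1.19% of that library's total, against 93.6 in NSC and 84.6 in ESC. NSC-CiPSC lines 1, 2 and 3 summed to 87.6, 98.4 and 84.7, close to ESC, and IEC-CiPSC lines 10 and 13 summed to 147 and 141. Fibrillar genes held 80.2% of the collagen sum in IEC but 16.8% in NSC, where the basement membrane class held the largest share (39.2%). In the lines the class of other collagens led, almost wholly through Col18a1, with 61.5% to 66.8% of the sum in NSC-CiPSC and 43.1% and 42.5% in IEC-CiPSC. The fibrillar share was 11.2% to 13.6% in NSC-CiPSC, 11.5% in ESC, and 30.2% and 33.2% in IEC-CiPSC lines 10 and 13.

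**Figure D1:**
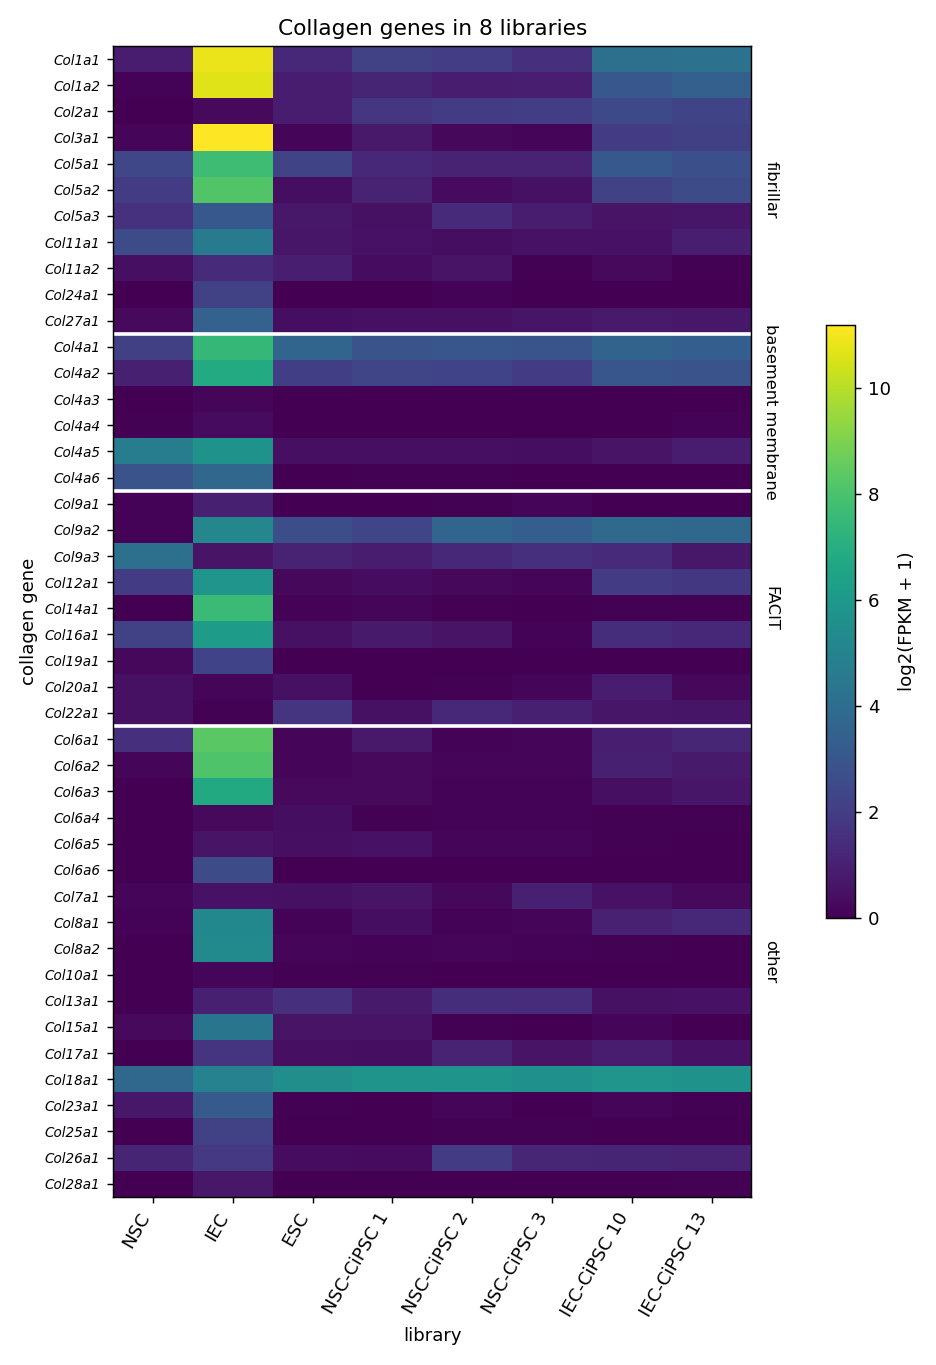
Level of each of the 44 collagen genes (rows, by class) in the 8 libraries (columns), as log2(FPKM + 1) on the color scale. Bright cells crowd into the IEC column, and Col18a1 is the row that is bright in all pluripotent lines.

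Of the 44 genes, 22 reached FPKM 10 in IEC and 11 reached 100, whereas 3 reached 10 in NSC (Col4a5, Col9a3 and Col18a1). The comparison of NSC with IEC, 1 library each, has no test. On the scale of log2(FPKM + 1), 23 of the 35 tested members were at least 4-fold higher in IEC. Col9a3 alone was at least 4-fold higher in NSC. Over all 17011 genes tested 14.9% were past 4-fold, 10.3% toward IEC and 4.66% toward NSC. Members tested only because they reached FPKM 1 in IEC, such as Col14a1, Col6a2 and Col8a2, were set toward IEC by that filter.

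Differences between groups were tested with limma on log2(FPKM + 1), and calls needed both a difference of at least 2-fold and an adjusted p (Benjamini-Hochberg) under 0.05. Along the intestinal route (IEC-CiPSC against IEC) 27 tested members were called lower and 1 higher, where 45.3% of all genes tested were called (26.2% lower, 19.1% higher). The members' median difference was -3.82 against -0.03 over all genes. A member that passed the filter only through IEC had to differ there, and with FPKM 1 required in 2 libraries 17 of 23 members tested were called, 16 lower and 1 higher, where 22.9% of 14608 genes were called lower and 23.2% higher. Along the neural route (NSC-CiPSC against NSC) 9 members were called lower and 6 higher, with 39.0% of all genes called (20.7% lower, 18.3% higher), so the share of members (42.9%) lay near the background. Their median was 0.02 beside 0.03 for all genes. The difference from source to line itself differed between routes in 27 of 35 members, where 30.5% of all genes were called. In 26 of them the neural route's value was the higher (17.6% of all genes) and in 1, Col9a3, the lower (12.9%). Members that passed the filter only through IEC were set toward a higher value here too. With FPKM 1 required in 2 libraries, 18 of 23 members were called, 17 higher and 1 lower. Of 14608 genes, 13.4% were then called higher and 13.8% lower. Quantile normalization moved the median of all genes to 0.15 on the intestinal route and to -0.14 for the difference between routes, with collagen medians of -3.73 and 2.41. Under it 4080 genes were called higher and 3674 lower on the intestinal route (3252 and 4462 without it), and 2552 and 2818 for the difference between routes (2989 and 2202 without it). Few members were called among pluripotent groups. Against ESC, 1 member was called higher in NSC-CiPSC and 0 lower (2.81% of all genes called, 0.946% higher and 1.86% lower), and without adjustment limma gave p under 0.05 for 1 higher and 2 lower. In IEC-CiPSC 4 members were called higher than in ESC and 0 lower (3.36% of all genes, 1.63% higher and 1.73% lower), and 11 higher and 3 lower were at unadjusted p under 0.05. Between origins 6 members were lower in NSC-CiPSC than in IEC-CiPSC and 0 higher (4.32% of all genes, 2.76% lower and 1.56% higher), and at unadjusted p under 0.05 there were 15 lower and 1 higher. Both comparisons with ESC rest on the same ESC library, and the 3 groups with 1 library are assumed to vary like the lines.

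The calls against ESC and between origins rest on few libraries. Shares over all genes moved as well. Without NSC-CiPSC line 1, 2 or 3, 5.30%, 2.22% and 1.23% of all genes were called in IEC-CiPSC against ESC. Between origins the shares were 4.70%, 2.17% and 0.837%, and for NSC-CiPSC against ESC 4.30%, 1.71% and 1.13%. On the intestinal route they were 47.3%, 45.1% and 42.9%, and on the neural route 40.6%, 38.0% and 35.2%. Against ESC, IEC-CiPSC had 7 member calls without NSC-CiPSC line 1, 1 without NSC-CiPSC line 3, and 0 without NSC-CiPSC line 2. Between origins the count was 6 without NSC-CiPSC line 1, 1 without line 2 or line 3, and 0 without either IEC-CiPSC line. The single call of NSC-CiPSC against ESC was lost without each line other than NSC-CiPSC line 1. The intestinal route had 27 to 29 member calls and the neural route 11 to 14 over the same 5 omissions.

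**Figure D2:**
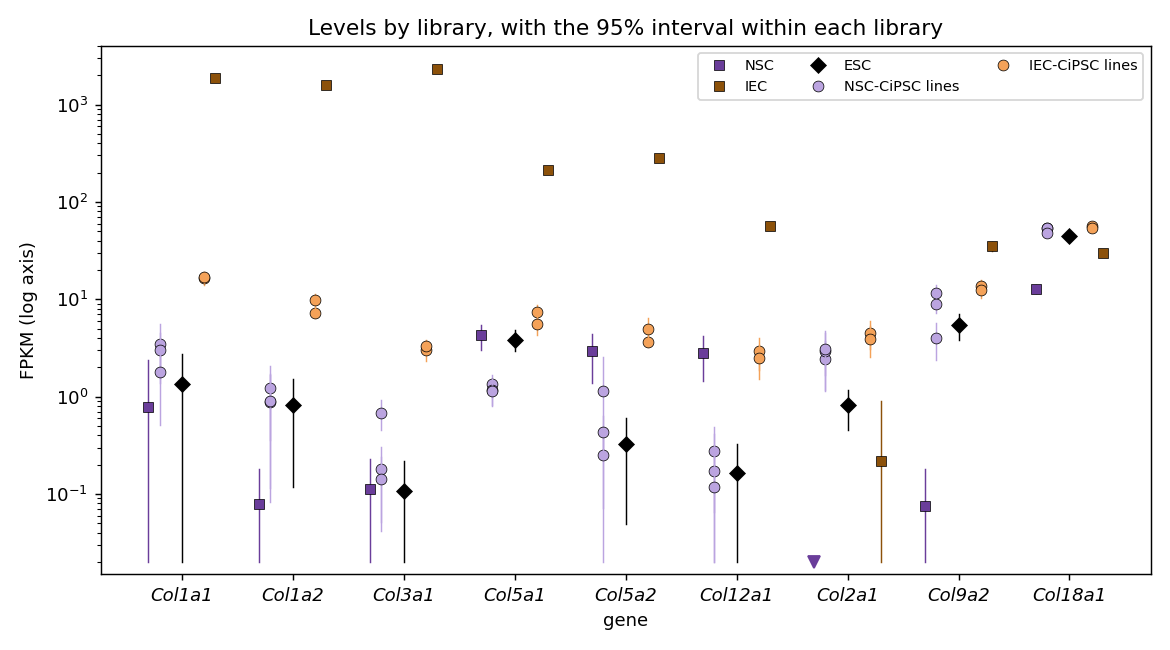
FPKM (log axis) of 9 collagen genes in each library, with bars for the deposited 95% interval within a library; intervals that reach 0 end at the floor, and a triangle there is a value of 0. For Col1a1, Col1a2, Col3a1, Col5a1, Col5a2 and Col12a1 both IEC-CiPSC lines lie above all NSC-CiPSC lines and ESC, and far under IEC.

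Among fibrillar genes, the type I and type III chains of connective tissue fibers led in IEC. Col1a1 (chr11:94936224-94953042, plus strand, mm10), the major chain of type I collagen, was at FPKM 0.783 in NSC, 3.47, 3.05 and 1.81 in NSC-CiPSC lines 1, 2 and 3, 1873 in IEC, 16.7 and 17.0 in IEC-CiPSC lines 10 and 13, and 1.36 in ESC. It ranked 44 of 39009 entries in IEC. Both IEC-CiPSC lines lay above the other lines and ESC without overlap, and all 5 lines lay above NSC. Its difference along the intestinal route was -6.72 ± 0.32 (SE) (limma, adjusted p = 0.000239). Against ESC the IEC-CiPSC difference was 2.92 ± 0.32 (SE) (limma, adjusted p = 0.0271), and between origins it was -2.27 ± 0.24 (SE) as NSC-CiPSC minus IEC-CiPSC (adjusted p = 0.0198). Over 12 alternatives these adjusted p-values reached 0.162 and 0.151, and both calls were lost without NSC-CiPSC line 2, IEC-CiPSC line 10 or IEC-CiPSC line 13. NSC-CiPSC differed from NSC by 1.06 ± 0.30 (SE) (limma, adjusted p = 0.0434), a call that was lost under 7 of 12 alternatives, among them without NSC-CiPSC line 1, NSC-CiPSC line 2 or either IEC-CiPSC line. Col1a2 (chr6:4504814-4541543, plus strand), the other type I chain, was at FPKM 0.0787 in NSC, 1.22, 0.883 and 0.907 in NSC-CiPSC lines 1, 2 and 3, 1576 in IEC, 7.21 and 9.74 in IEC-CiPSC lines 10 and 13, and 0.819 in ESC. Again the IEC-CiPSC lines lay apart, at 0.457% and 0.618% of the IEC level, and NSC-CiPSC lines lay close to ESC. The differences were 2.37 ± 0.23 (SE) against ESC (limma, adjusted p = 0.0226) and -2.23 ± 0.17 (SE) between origins (adjusted p = 0.0119), and both were lost on leaving out any line but NSC-CiPSC line 1 (adjusted p up to 0.101 and 0.0885). The ratio of Col1a1 to Col1a2 was 1.19 in IEC, 1.66 in ESC, 1.75 to 2.31 in IEC-CiPSC and 1.99 to 3.45 in NSC-CiPSC. Col3a1 (chr1:45311538-45349706, plus strand), the type III chain of elastic tissues and vessels, was at FPKM 0.113 in NSC, 0.685, 0.180 and 0.142 in NSC-CiPSC lines 1, 2 and 3, 2331 in IEC, 3.01 and 3.32 in IEC-CiPSC lines 10 and 13, and 0.109 in ESC. This was the highest collagen in IEC, rank 25 of 39009, and the IEC-CiPSC lines again exceeded every other pluripotent library. Its drop along the intestinal route, -9.13 ± 0.29 (SE), was the largest of the 35 tested members on the log2(FPKM + 1) scale (limma, adjusted p = 7.66e-05). Among genes at FPKM 10 or more in IEC, Col14a1 (0.0242%), Col8a2 (0.0562%) and Col4a6 (0.123%) kept a lower share of the IEC level in IEC-CiPSC than Col3a1 (0.136%). Between origins Col3a1 differed by -1.66 ± 0.22 (SE) (adjusted p = 0.0286, lost with a pseudocount of 0.1 and on leaving out any line but NSC-CiPSC line 1, up to 0.184), and against ESC the IEC-CiPSC difference of 1.91 ± 0.29 (SE) missed the threshold (limma, adjusted p = 0.0523).

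Of the 3 genes for type V chains, which help start type I fibrils, Col5a1 and Col5a2 were called higher in lines of IEC origin and Col5a3 was not. Col5a1 (chr2:27886425-28039514, plus strand) was at FPKM 4.25 in NSC, 1.34, 1.16 and 1.14 in NSC-CiPSC lines 1, 2 and 3, 212 in IEC, 7.45 and 5.55 in IEC-CiPSC lines 10 and 13, and 3.85 in ESC. ESC lay between the lines of either origin, above all NSC-CiPSC lines and under both IEC-CiPSC lines. Neither difference from ESC passed the threshold (-1.13 ± 0.19 (SE), adjusted p = 0.0659 for NSC-CiPSC and 0.62 ± 0.21 (SE), adjusted p = 0.182 for IEC-CiPSC, limma), whereas the difference between origins was -1.75 ± 0.15 (SE) (adjusted p = 0.0149, lost on leaving out any line but NSC-CiPSC line 1, up to 0.0927). Col5a2 (chr1:45374321-45503282, minus strand), next to Col3a1 on chromosome 1, was at FPKM 2.91 in NSC, 1.14, 0.250 and 0.432 in NSC-CiPSC lines 1, 2 and 3, 281 in IEC, 3.68 and 4.95 in IEC-CiPSC lines 10 and 13, and 0.329 in ESC. NSC-CiPSC line 1 was the highest of its origin for Col5a2 as for Col3a1, still under both IEC-CiPSC lines. The difference between origins was -1.75 ± 0.29 (SE) (limma, adjusted p = 0.044), and it was lost under 7 of 12 alternatives (adjusted p up to 0.235), the omission of any line but NSC-CiPSC line 1 included. Col5a1 and Col5a2 were also called lower in NSC-CiPSC than in NSC, with differences of -1.25 ± 0.19 (SE) for Col5a1 and -1.32 ± 0.37 (SE) for Col5a2 (limma, adjusted p = 0.00796 and 0.0421), and the Col5a2 call was lost under 7 of 12 alternatives. Col5a3 was at FPKM 1.99 in NSC, 0.408, 1.54 and 0.861 in NSC-CiPSC lines 1, 2 and 3, 7.51 in IEC, 0.522 and 0.582 in IEC-CiPSC lines 10 and 13, and 0.672 in ESC. Both IEC-CiPSC lines lay within the range of the NSC-CiPSC lines, and its differences were 0.28 ± 0.28 (SE) between origins and -0.67 ± 0.35 (SE) on the neural route, neither of them called (limma, adjusted p = 0.574 and 0.177).

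Col2a1 (chr15:97975602-98004695, minus strand), the type II chain of cartilage, went the other way from most fibrillar genes. It was at FPKM 0 in NSC, 2.46, 2.94 and 3.10 in NSC-CiPSC lines 1, 2 and 3, 0.218 in IEC, 4.48 and 3.92 in IEC-CiPSC lines 10 and 13, and 0.813 in ESC. All 5 lines exceeded ESC and both source libraries. Col2a1 was the one member called higher along the intestinal route (2.09 ± 0.15 (SE), limma, adjusted p = 0.000804), and it was higher along the neural route too (1.94 ± 0.14 (SE), adjusted p = 0.00116). It was also the one member called above ESC in lines of both origins, by 1.08 ± 0.14 (SE) in NSC-CiPSC (limma, adjusted p = 0.0432) and 1.52 ± 0.15 (SE) in IEC-CiPSC (adjusted p = 0.0231), which share the ESC library. Both were lost without NSC-CiPSC line 2, NSC-CiPSC line 3 or either IEC-CiPSC line (adjusted p up to 0.137 and 0.126). Col11a1, a type XI chain that limits fibril width, was at FPKM 5.05 in NSC, 0.458, 0.319 and 0.482 in NSC-CiPSC lines 1, 2 and 3, 22.5 in IEC, 0.439 and 0.933 in IEC-CiPSC lines 10 and 13, and 0.577 in ESC. Lines of both origins overlapped for it, and ESC lay above the NSC-CiPSC lines and between the IEC-CiPSC lines. It was called lower on both routes (-2.09 ± 0.20 (SE) neural and -3.82 ± 0.21 (SE) intestinal, limma, adjusted p = 0.00215 and 0.000373). Col27a1 was at FPKM 0.205 in NSC, 0.427, 0.438 and 0.560 in NSC-CiPSC lines 1, 2 and 3, 10.6 in IEC, 0.761 and 0.673 in IEC-CiPSC lines 10 and 13, and 0.316 in ESC. Both IEC-CiPSC lines exceeded the other pluripotent libraries, and no difference among pluripotent groups was called. The other 3 fibrillar genes peaked in IEC, Col5a3 at FPKM 7.51, Col24a1 at 3.48 and Col11a2 at 1.60, and were called lower along the intestinal route. The Col11a2 call was lost under 3 of 11 alternatives (adjusted p up to 0.0729), among them without IEC-CiPSC line 13.

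Basement membrane genes come in 3 head-to-head pairs, whose starts lie close together on opposite strands. Col4a1 and Col4a2 on chromosome 8 overlap by 22 bases at their starts (11312826 and 11312805), Col4a3 and Col4a4 on chromosome 1 start 72 bases apart, and Col4a5 and Col4a6 on chromosome X start 1309 bases apart. Col4a1, the ubiquitous α1 chain, was at FPKM 3.28 in NSC, 6.18, 6.99 and 6.58 in NSC-CiPSC lines 1, 2 and 3, 173 in IEC, 10.6 and 9.28 in IEC-CiPSC lines 10 and 13, and 11.5 in ESC. Col4a2, its partner in the common type IV trimer, was at FPKM 0.987 in NSC, 4.05, 3.69 and 3.02 in NSC-CiPSC lines 1, 2 and 3, 114 in IEC, 6.85 and 6.34 in IEC-CiPSC lines 10 and 13, and 3.23 in ESC. IEC held the highest level of both, and NSC the lowest. ESC exceeded every line for Col4a1 but lay among the NSC-CiPSC lines for Col4a2, so that the ratio of Col4a1 to Col4a2 was 3.55 in ESC, 3.33 in NSC and 1.46 to 2.18 in the lines. Neither gene was called against ESC or between origins, although both IEC-CiPSC lines exceeded all NSC-CiPSC lines for both genes (differences -0.53 ± 0.10 (SE) and -0.73 ± 0.14 (SE), limma, adjusted p = 0.0539 and 0.0561). Chromosome 8 as a whole was lower in the lines than in ESC. The median difference from ESC over its 791 tested genes was -0.17 for lines of NSC origin and -0.23 for those of IEC origin. Over 15506 genes of the other autosomes it was 0.03 and 0.00. Both comparisons rest on the same ESC library, so lower lines and a higher ESC cannot be told apart. The part of this shift in the Col4a1 values was not tested. Along the neural route Col4a2 was called higher (1.20 ± 0.18 (SE), limma, adjusted p = 0.00706), and Col4a1, at 0.82 ± 0.13 (SE) (adjusted p = 0.00768), was under the 2-fold limit.

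Col4a5 and Col4a6 were the type IV chains that both source cells shared. Col4a5, an α5 chain gene of kidney, skin and neural basement membranes, was at FPKM 26.1 in NSC, 0.365, 0.389 and 0.351 in NSC-CiPSC lines 1, 2 and 3, 51.1 in IEC, 0.488 and 0.784 in IEC-CiPSC lines 10 and 13, and 0.383 in ESC. Col4a6, its partner, was at FPKM 6.36 in NSC, 0.0335, 0.0332 and 0 in NSC-CiPSC lines 1, 2 and 3, 11.8 in IEC, 0 and 0.0289 in IEC-CiPSC lines 10 and 13, and 0 in ESC. Both source libraries lay far above all pluripotent libraries for either gene. Among the latter the IEC-CiPSC lines were highest for Col4a5, and Col4a6 was listed at 0 in 3 of 6. Col4a5 was called lower on both routes (-4.31 ± 0.14 (SE) neural and -5.00 ± 0.15 (SE) intestinal, limma, adjusted p = 0.000166 and 6.35e-05), and the difference between routes of 0.69 ± 0.21 (SE) was not called (adjusted p = 0.0656). Col4a3 and Col4a4, chains of glomerular basement membrane, were near the limit of detection. Col4a3 was at FPKM 0 in NSC, 0, 0.0256 and 0.0227 in NSC-CiPSC lines 1, 2 and 3, 0.157 in IEC, 0.0112 and 0.0111 in IEC-CiPSC lines 10 and 13, and 0.0116 in ESC. Col4a4 was at FPKM 0.0351 in NSC, 0, 0 and 0 in NSC-CiPSC lines 1, 2 and 3, 0.260 in IEC, 0 and 0.0887 in IEC-CiPSC lines 10 and 13, and 0 in ESC. IEC was the highest for both.

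**Figure D3:**
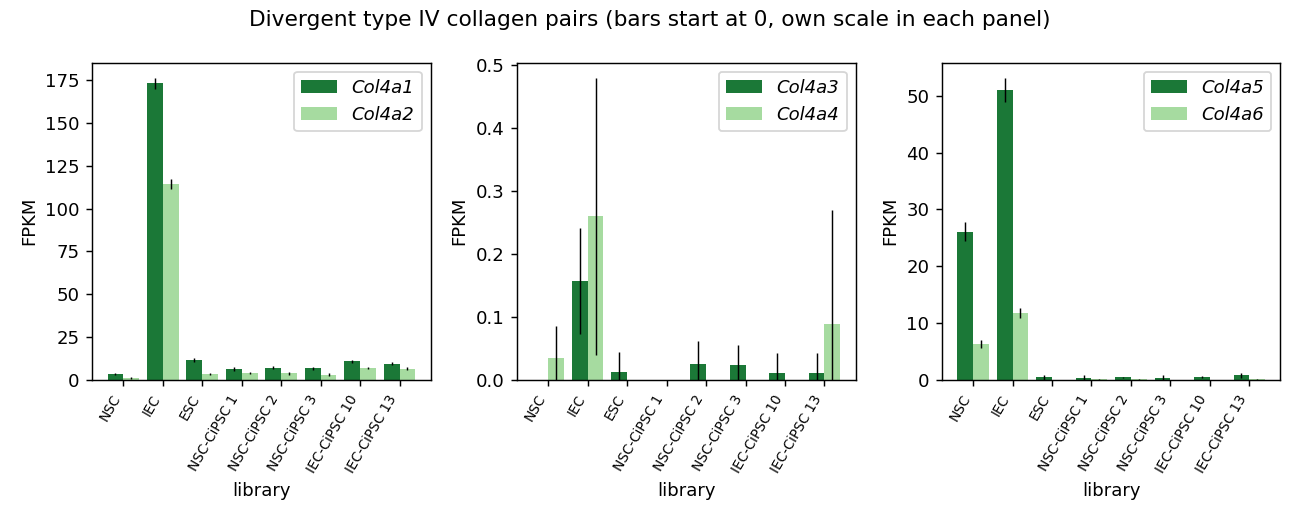
FPKM of the 3 head-to-head type IV pairs in each library, with bars from 0, error lines for the deposited 95% interval within a library, and a separate vertical scale in each panel. Col4a1 with Col4a2 and Col4a5 with Col4a6 are highest in IEC, the latter pair is also high in NSC, and Col4a3 with Col4a4 reach at most FPKM 0.26.

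Among FACIT genes, Col14a1, Col12a1, Col16a1 and Col9a2 were highest in IEC and Col9a3 in NSC. Col14a1, which binds fibrils of dense connective tissue, was at FPKM 0.0162 in NSC, 0.108, 0.0582 and 0.0152 in NSC-CiPSC lines 1, 2 and 3, 195 in IEC, 0.0450 and 0.0493 in IEC-CiPSC lines 10 and 13, and 0.0777 in ESC. IEC alone was above FPKM 1, and the lines kept 0.0242% of the IEC level (IEC-CiPSC) and 0.031% (NSC-CiPSC), with ESC at 0.0398%. The IEC-CiPSC lines lay within the range of the NSC-CiPSC lines and ESC. Col12a1 (chr9:79598991-79718831, minus strand), a fibril-associated chain of tendon and fascia, was at FPKM 2.84 in NSC, 0.279, 0.173 and 0.119 in NSC-CiPSC lines 1, 2 and 3, 55.9 in IEC, 2.92 and 2.47 in IEC-CiPSC lines 10 and 13, and 0.165 in ESC. The IEC-CiPSC lines lay at 5.21% and 4.41% of IEC, close to the NSC level, and the NSC-CiPSC lines overlapped with ESC. Col12a1 was the one FACIT gene called above ESC in IEC-CiPSC (1.66 ± 0.14 (SE), limma, adjusted p = 0.0173) and the one called between origins (-1.63 ± 0.11 (SE), adjusted p = 0.0088). Over the alternatives these adjusted p-values reached 0.0945 and 0.0808, and both calls were lost without NSC-CiPSC line 3, IEC-CiPSC line 10 or IEC-CiPSC line 13, the first also without NSC-CiPSC line 2. Col16a1 was at FPKM 3.55 in NSC, 0.767, 0.517 and 0.0861 in NSC-CiPSC lines 1, 2 and 3, 69.0 in IEC, 1.74 and 1.36 in IEC-CiPSC lines 10 and 13, and 0.397 in ESC. Its IEC-CiPSC lines were above all other pluripotent libraries, but the difference from ESC of 0.86 ± 0.33 (SE) was not called (limma, adjusted p = 0.226). Col12a1 and Col16a1 were also lower in NSC-CiPSC than in NSC (-1.69 ± 0.14 (SE) and -1.67 ± 0.32 (SE), limma, adjusted p = 0.0014 and 0.014, up to 0.00979 and 0.0629 over the alternatives).

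The type IX genes, which encode chains of one cartilage heterotrimer, had opposite patterns. Col9a2 was at FPKM 0.0745 in NSC, 4.02, 11.6 and 9.03 in NSC-CiPSC lines 1, 2 and 3, 34.9 in IEC, 13.7 and 12.4 in IEC-CiPSC lines 10 and 13, and 5.43 in ESC. It was near 0 in NSC and present in every pluripotent library, with the NSC-CiPSC lines on either side of ESC and the IEC-CiPSC lines above both. NSC-CiPSC exceeded NSC by 3.00 ± 0.57 (SE) (limma, adjusted p = 0.0142), and the IEC-CiPSC difference from IEC of -1.36 ± 0.61 (SE) was not called (adjusted p = 0.123). Col9a3 was at FPKM 16.6 in NSC, 0.875, 1.47 and 1.95 in NSC-CiPSC lines 1, 2 and 3, 0.520 in IEC, 1.59 and 0.653 in IEC-CiPSC lines 10 and 13, and 1.11 in ESC. NSC stood alone above FPKM 2 for it, and the NSC-CiPSC difference from NSC was -2.88 ± 0.38 (SE) (limma, adjusted p = 0.00515). It was the one member whose difference between routes was called toward a lower neural value (-3.32 ± 0.55 (SE)). Col9a1, which encodes the remaining chain, stayed under FPKM 1 in all libraries.

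Among the other classes, Col6a1, Col6a2 and Col6a3, whose chains form the type VI microfibrils, were highest in IEC, whereas Col6a4 was under FPKM 1 in every library and highest in ESC (0.351 against 0.236 in IEC). Col6a1 was at FPKM 1.82 in NSC, 0.677, 0.0824 and 0.128 in NSC-CiPSC lines 1, 2 and 3, 319 in IEC, 0.914 and 1.27 in IEC-CiPSC lines 10 and 13, and 0.150 in ESC. Col6a2, on the same chromosome, was at FPKM 0.0970 in NSC, 0.232, 0.114 and 0.104 in NSC-CiPSC lines 1, 2 and 3, 271 in IEC, 0.981 and 0.772 in IEC-CiPSC lines 10 and 13, and 0.0962 in ESC. Col6a3, the longest of these chains, was at FPKM 0 in NSC, 0.210, 0.0729 and 0.0647 in NSC-CiPSC lines 1, 2 and 3, 111 in IEC, 0.384 and 0.576 in IEC-CiPSC lines 10 and 13, and 0.225 in ESC. For Col6a1, Col6a2 and Col6a3 both IEC-CiPSC lines exceeded all NSC-CiPSC lines and ESC, yet they held 0.342%, 0.323% and 0.434% of the IEC level on average, and no difference among pluripotent groups was called. Col6a1 was also lower in NSC-CiPSC than in NSC (-1.15 ± 0.31 (SE), limma, adjusted p = 0.038), a call lost under 7 of 12 alternatives (adjusted p up to 0.0989). The Col6a2 difference between origins reached an adjusted p of 0.0292 at -0.71 ± 0.09 (SE) (limma), under the 2-fold limit on this scale. Col8a1, a short-chain network collagen of vessels and eye, was at FPKM 0.0826 in NSC, 0.335, 0.0873 and 0.135 in NSC-CiPSC lines 1, 2 and 3, 36.7 in IEC, 1.03 and 1.35 in IEC-CiPSC lines 10 and 13, and 0.0792 in ESC. It had the same order, with a difference from ESC of 1.02 ± 0.17 (SE) in IEC-CiPSC that was not called (limma, adjusted p = 0.0587). Its partner Col8a2 was at FPKM 0 in NSC, 0.0702, 0.104 and 0.0919 in NSC-CiPSC lines 1, 2 and 3, 40.4 in IEC, 0.0454 and 0 in IEC-CiPSC lines 10 and 13, and 0.118 in ESC, and here the IEC-CiPSC lines lay under the NSC-CiPSC lines at levels of few fragments. Col15a1, a basement membrane zone collagen, was at FPKM 0.205 in NSC, 0.510, 0.0431 and 0 in NSC-CiPSC lines 1, 2 and 3, 19.2 in IEC, 0.122 and 0 in IEC-CiPSC lines 10 and 13, and 0.521 in ESC. Lines of both origins overlapped for it, and ESC was the highest pluripotent library.

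Col18a1 (chr10:77052178-77166548, minus strand), the basement membrane zone collagen whose C-terminal fragment is endostatin, was the member most highly expressed in pluripotent cells. It was at FPKM 12.8 in NSC, 54.1, 53.7 and 47.6 in NSC-CiPSC lines 1, 2 and 3, 30.2 in IEC, 56.8 and 53.4 in IEC-CiPSC lines 10 and 13, and 45.0 in ESC. Every pluripotent library exceeded both source libraries, and the lines of both origins overlapped. NSC-CiPSC exceeded NSC by 1.93 ± 0.10 (SE) (limma, adjusted p = 0.000514), and IEC-CiPSC exceeded IEC by 0.85 ± 0.11 (SE) (adjusted p = 0.0041), under the 2-fold limit. All 5 lines were above ESC, by 0.20 ± 0.10 (SE) and 0.28 ± 0.11 (SE) in the groups, and neither difference passed (limma, adjusted p = 0.366 and 0.223). Col13a1, a transmembrane collagen, was at FPKM 0 in NSC, 0.727, 1.72 and 1.66 in NSC-CiPSC lines 1, 2 and 3, 0.968 in IEC, 0.396 and 0.481 in IEC-CiPSC lines 10 and 13, and 1.85 in ESC. Both IEC-CiPSC lines lay under every NSC-CiPSC line and ESC, the reverse of the fibrillar order, but no difference among pluripotent groups was called. NSC-CiPSC exceeded NSC by 1.21 ± 0.30 (SE) (limma, adjusted p = 0.0303), a call lost under 4 of 12 alternatives, each the omission of a line other than NSC-CiPSC line 1.

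Expressed as the share of the IEC level left in each library, the 22 genes at FPKM 10 or more in IEC had a median of 1.39% in IEC-CiPSC, 0.424% in NSC-CiPSC and 0.293% in ESC. The range in IEC-CiPSC ran from 0.0242% for Col14a1 to 183% for Col18a1. Next to Col18a1 stood Col9a2 at 37.4%, Col27a1 at 6.77% and Col4a2 and Col4a1 at 5.76% and 5.74%. Type I and III genes were at 0.899% (Col1a1), 0.537% (Col1a2) and 0.136% (Col3a1) of the IEC level. In ESC the same genes were at 0.0724%, 0.0519% and 0.00466%. Col18a1, Col9a2, Col27a1, Col4a2 and Col4a1 were at 149%, 15.5%, 2.98%, 2.82% and 6.61% in ESC. The share is divided by the IEC level, so a high source level by itself lowers it. Of the 35 tested members, both IEC-CiPSC lines exceeded all 3 NSC-CiPSC lines in 17, where 21.0% of all genes tested did so, and both were lower in 2, where 26.8% of all genes were. For the 3 members at FPKM 10 or more in NSC, the NSC-CiPSC lines held 1.41% (Col4a5), 8.66% (Col9a3) and 405% (Col18a1) of the NSC level, and the IEC-CiPSC lines 2.44%, 6.78% and 431%.

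**Figure D4:**
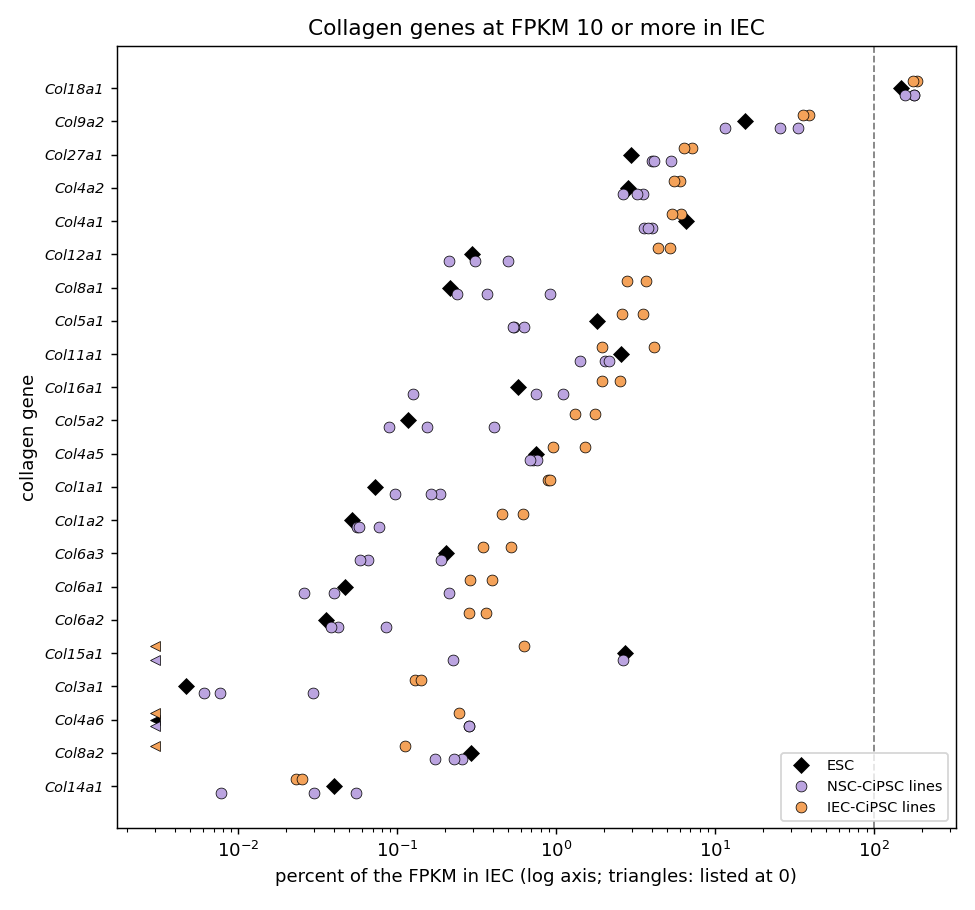
FPKM in each pluripotent library as a percent of the IEC level (log axis) for the 22 collagen genes at FPKM 10 or more in IEC, with triangles for values of 0. IEC-CiPSC lines lie to the right of NSC-CiPSC lines and ESC for Col1a1, Col1a2, Col3a1 and Col12a1, and the symbols mix for Col14a1 and Col11a1.

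Genes that modify, secrete, cross-link, bind and degrade collagens were counted from lists of known pathway members. More genes of each list were called lower than higher on the intestinal route: 12 of 19 tested for chain modification, 8 of 13 for secretion and propeptide removal, 12 of 13 for cross-linking and fibril assembly, 8 of 8 receptors, 7 of 9 for degradation and 6 of 15 basement membrane partners, with 0, 1, 0, 0, 1 and 2 called higher. Over all genes tested, 26.2% were called lower on that route and 19.1% higher. List genes that passed the filter only through IEC, such as Lum, had to be lower there. Cross-linking genes at FPKM 1 or more numbered 13 in IEC, 8 and 9 in IEC-CiPSC lines 10 and 13, and 4 in NSC and in ESC. The lists were not counted with FPKM 1 required in 2 libraries. At unadjusted p under 0.05, limma gave 0 higher genes for chain modification, cross-linking or receptors on that route. Serpinh1, the collagen chaperone of the endoplasmic reticulum, averaged FPKM 56.5 in IEC-CiPSC against 824 in IEC. Bmp1, the C-propeptide protease, averaged 1.76 against 61.7, and Adamts2, the N-propeptide protease, 0.509 against 45.7. The small leucine-rich proteoglycans of fibrils had the largest falls in the cross-linking list on the log2(FPKM + 1) scale, with Dcn at 0.575 against 709 and Lum at 0.0752 against 204. Among receptors Ddr2, a fibrillar collagen kinase, averaged 0.725 against 31.1. On the neural route the counts were 7 lower and 1 higher for chain modification, 3 and 1 for secretion, 1 and 1 for cross-linking, 4 and 0 for receptors, 4 and 3 for degradation, and 1 and 9 for basement membrane partners, where 20.7% of all genes tested were called lower and 18.3% higher. For receptors 0 were higher there at unadjusted p under 0.05 (limma). The partners that rose included Hspg2, the perlecan core protein, from 4.88 to a mean of 42.8, Lamb1, a laminin chain, from 1.92 to 15.3, and Nid2, a nidogen, from 13.2 to 51.9. Pcolce, which enhances propeptide removal, rose from 5.31 in NSC to a mean of 91.7, whereas Bmp1 fell from 40.4 to 1.55.

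Between lines of NSC and IEC origin the cross-linking and fibril assembly list had 4 called lower in NSC-CiPSC (Lox, Bgn, Postn and Sparc) and 0 higher of 13 (9 lower and 0 higher at unadjusted p under 0.05, limma), where 2.76% of all genes tested were called lower and 1.56% higher. Its median was -0.74 beside 0.03 over all genes. Lox, the lysyl oxidase that cross-links fibrillar collagen, was at FPKM 0.119 in NSC, 0.521, 0.252 and 0.419 in NSC-CiPSC lines 1, 2 and 3, 322 in IEC, 15.6 and 18.7 in IEC-CiPSC lines 10 and 13, and 0.860 in ESC. Bgn, a proteoglycan of type I fibrils, was at FPKM 0.495 in NSC, 1.13, 1.00 and 0.985 in NSC-CiPSC lines 1, 2 and 3, 1347 in IEC, 20.4 and 20.2 in IEC-CiPSC lines 10 and 13, and 1.10 in ESC. Sparc, a collagen-binding matricellular protein, was at FPKM 154 in NSC, 87.8, 114 and 108 in NSC-CiPSC lines 1, 2 and 3, 3116 in IEC, 229 and 208 in IEC-CiPSC lines 10 and 13, and 82.7 in ESC. For each of these genes both IEC-CiPSC lines exceeded all other pluripotent libraries, and IEC was higher still. The differences between origins were -3.70 ± 0.15 (SE), -3.38 ± 0.09 (SE) and -1.08 ± 0.14 (SE) (limma, adjusted p = 0.00408, 0.00153 and 0.0272). Calls of these and other pathway or marker genes were not followed through the alternatives. Of the collagen calls between origins or against ESC, 0 held under every alternative. Against ESC, IEC-CiPSC had 5 of the 13 called higher (Lox, Loxl1, Bgn, Postn and Sparc) and 0 lower, where 1.63% of all genes tested were called higher and 1.73% lower, with Lox at 3.28 ± 0.20 (SE) and Bgn at 3.34 ± 0.12 (SE) (limma, adjusted p = 0.00759 and 0.00178). Dcn, Lum and Fmod, at FPKM 204 to 709 in IEC, were at 0.65 or less in the IEC-CiPSC lines. Between origins the degradation list had 3 lower (Timp1, Timp2 and Timp3) and 1 higher (Mmp14) in NSC-CiPSC. Timp1, an inhibitor of matrix metalloproteinases, averaged 34.3 in NSC-CiPSC and 94.1 in IEC-CiPSC, and Mmp14, a membrane-bound collagenase, 17.2 and 7.74. Chain modification, secretion, receptors and basement membrane partners had 0 calls in either direction between origins, and at unadjusted p under 0.05 limma gave 3 higher and 2 lower, 3 and 1, 0 and 3, and 4 and 4. In NSC-CiPSC against ESC, where 0.946% of all genes were called higher, the calls were Tmem38b, an endoplasmic reticulum channel, averaging 15.0 against 6.14, and Lama3, a laminin chain. In IEC-CiPSC against ESC, the degradation list had Timp1 and Timp2 called higher and 0 lower, with 4 higher and 2 lower at unadjusted p under 0.05 (limma). Postn, Loxl1, Timp2, Timp3 and Lama3 were named after their values were seen.

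**Figure D5:**
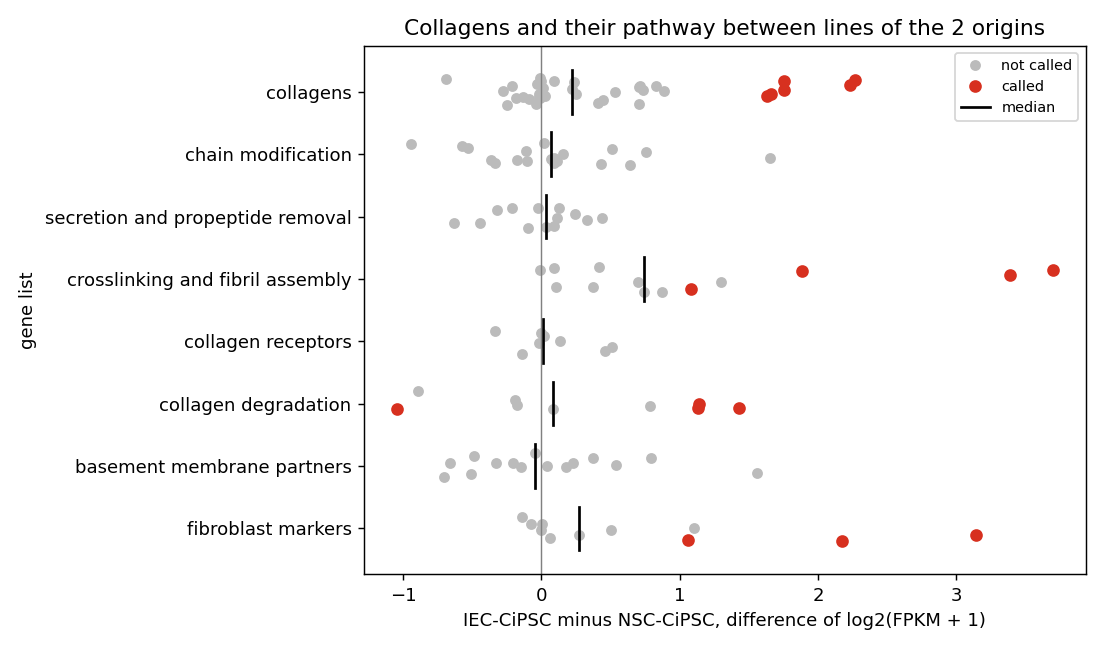
Difference between IEC-CiPSC and NSC-CiPSC lines for each tested gene of a list (points), as a difference of log2(FPKM + 1); red points were called, gray points were not, and black bars are list medians. The 6 called collagens and 4 called cross-linking genes lie to the right of 0, and the chain modification, secretion, receptor and basement membrane lists have none called.

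Of 11 fibroblast markers, 3 (Prrx1, Fbln2 and S100a4) were called lower in NSC-CiPSC than in IEC-CiPSC and 0 higher, where 2.76% of all genes tested were called lower. The other 8 were not called, among them Pdgfra, a receptor for platelet-derived growth factor, at a difference of 0.07 ± 0.05 (SE), Twist1, a mesenchymal transcription factor, at 0.14 ± 0.12 (SE), and Vim, an intermediate filament protein, at -0.06 ± 0.25 (SE). Against ESC, 2 markers (Fbln2 and S100a4) were called higher in IEC-CiPSC and 0 lower, where 1.63% of all genes were called higher, and Thy1 and Vim had lower values, by differences of -0.32 ± 0.30 (SE) and -1.34 ± 0.33 (SE), that were not called (limma, adjusted p = 0.581 and 0.111). Fbln2, an extracellular matrix protein, was at FPKM 11.4 in NSC, 1.08, 2.12 and 2.61 in NSC-CiPSC lines 1, 2 and 3, 94.6 in IEC, 12.0 and 11.9 in IEC-CiPSC lines 10 and 13, and 1.04 in ESC. The list summed to 149 and 151 in IEC-CiPSC, 105 to 134 in NSC-CiPSC and 246 in ESC. Its sum was 1137 in IEC and nearly as high in NSC, 1092. Vim alone gave 827 of the NSC sum, 656 of the IEC sum and 219 of the ESC sum. Tcf21, a mesenchymal transcription factor at 57.0 in IEC, was listed at 0 in all 5 lines, ESC and NSC. Smooth muscle markers summed to 64.6 and 75.6 in IEC-CiPSC, 50.6 to 96.0 in NSC-CiPSC and 15.2 in ESC. Between origins 1 of the 8 was called higher in NSC-CiPSC and 0 lower, where 1.56% of all genes were called higher. At unadjusted p under 0.05, limma gave 1 higher and 4 lower in NSC-CiPSC. Acta2, smooth muscle actin, was at 27.2 and 34.3 in IEC-CiPSC against 2.60 in ESC, and 0 of the 8 markers were called in IEC-CiPSC against ESC (5 higher and 1 lower at unadjusted p under 0.05, limma). Leukocyte markers summed to 92.8 and 101 in IEC-CiPSC against 57.6 to 69.6 in NSC-CiPSC and 110.2 in ESC, with Ptprc and Tyrobp at 0 in both IEC-CiPSC lines. The highest single marker gave 82.8 and 87.3 of these IEC-CiPSC sums, 45.8 to 59.1 in NSC-CiPSC and 97.8 in ESC. Only 2 of the 8 leukocyte markers reached FPKM 1 in each of these libraries. Hepatocyte markers summed to 0.214 and 0.377 in IEC-CiPSC and to 0.246 to 0.771 in NSC-CiPSC. Pdgfra, Twist1, Vim, Thy1 and Acta2 were named after their values were seen. The part of these cell types in the collagen differences was not tested.

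The 5 tested genes outside the family most like Col1a1 over the 8 libraries, by Pearson correlation of log2(FPKM + 1) among 10595 genes reaching FPKM 10, were Olfml1 (0.991), Arl11 (0.991), Bgn (0.989), Postn (0.987) and Fgf10 (0.987). Those most like Col4a1 were H6pd (0.995), F2 (0.993), Ahr (0.993), Sync (0.991) and Ptk2b (0.991). All 10 peaked in IEC, and the values describe 8 points that share this 1 high library.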

How the data were processed

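RNA from 8 mouse samples was prepared with the RNeasy Plus Mini kit and made into libraries with the NEBNext Ultra RNA kit, per the labels' protocols. Per the submitters' processing notes, the tools were TopHat and Cufflinks and the build mm10, and the authors deposited FPKM per gene with a 95% interval; versions and settings are not given in the sources used here. FPKM values are not counts, so limma 3.58.1 (R 4.3.3) was run on log2(FPKM + 1), with 5 group means over the 8 libraries and a trend in the prior variance (3 residual and 1.10 prior degrees of freedom). NSC, IEC and ESC had 1 library each and were assumed to vary like the lines. The 17011 genes that reached FPKM 1 in any library and had status OK in all were tested, and p-values were adjusted over all of them by Benjamini-Hochberg. The pseudocount of 1 understates fold changes of low genes. Depth of 8815652 to 10119277 fragments was estimated from the deposited values. Of 39009 entries, 37451 matched GENCODE M21 by identifier, 99.8% of those at overlapping positions. Values in every library are given for members at FPKM 10 or more in any library, members called against ESC or between origins, and head-to-head pairs within 2000 bases; of each pathway list, up to 4 called genes at FPKM 10 or more with the largest differences could be named. Col13a1 is given too and was chosen after its values were seen. The members and gene lists were chosen with earlier results of these data known. Alternatives were the pseudocount, filter on low values, quantile normalization, variance trend, entries not marked OK, a fit of the 2 groups compared alone, and omission of each line. The test of the difference between routes was added after seeing the data. Figures used matplotlib 3.10.9.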

Additional observations from a re-analysis of the deposited data

Results flagged for a closer look

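Lines of NSC and IEC origin differed, by limma on log2(FPKM + 1) as NSC-CiPSC minus IEC-CiPSC, in 6 collagen genes: Col1a1 (-2.27), Col1a2 (-2.23), Col3a1 (-1.66), Col5a1 (-1.75), Col5a2 (-1.75) and Col12a1 (-1.63). Each was lower in all 3 NSC-CiPSC lines than in both IEC-CiPSC lines. Over all genes tested 4.32% were called (2.76% lower, 1.56% higher), and 0 of the 6 calls held under every alternative.

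The difference from source to line differed between the neural and intestinal routes in 27 of 35 members, where 30.5% of all genes were called. The contrast was a limma interaction given as neural minus intestinal, and members at FPKM 10 or more in any library are listed here. Among fibrillar genes it was 7.77 for Col1a1, 8.28 for Col1a2, 9.37 for Col3a1, 3.59 for Col5a1, 4.42 for Col5a2, 1.73 for Col11a1 and 3.05 for Col27a1. The type IV genes Col4a1 and Col4a2 differed by 4.82 and 5.13. Among FACIT genes it was 4.36 for Col9a2, 2.26 for Col12a1, 7.61 for Col14a1 and 3.11 for Col16a1, and -3.32 for Col9a3, the one gene toward a lower neural value. Among the others it was 6.11 for Col6a1, 7.25 for Col6a2, 6.40 for Col6a3, 4.23 for Col8a1, 5.46 for Col8a2, 4.20 for Col15a1 and 1.09 for Col18a1. Members that passed the filter only through IEC, such as Col14a1, Col6a2 and Col8a2, were set toward a higher value by that filter.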

How the results depend on the processing

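No call of a collagen gene reversed under any alternative run. Over these, 27 of 28 calls on the intestinal route, 10 of 15 on the neural route and 20 of 27 between routes held throughout, and 0 of the 11 calls against ESC or between origins did. With a pseudocount of 0.1 the collagen medians were 0.18 (neural route) and -5.02 (intestinal route). They were 0.20 (NSC-CiPSC against ESC), 0.58 (IEC-CiPSC against ESC) and -0.51 (between origins). At that pseudocount 0 members were called in NSC-CiPSC against ESC, where 2.65% of all genes were. With no filter the medians were -2.51 (intestinal route), 0.034 (IEC-CiPSC against ESC) and -0.030 (between origins). With FPKM 1 required in 2 libraries, fewer members were tested, 17 were called on the intestinal route (1 higher, 16 lower), and the medians were 0.13 on the neural route, 0.13 and 0.75 against ESC for NSC-CiPSC and IEC-CiPSC, and -0.53 between origins. Quantile normalization gave medians of -0.14 (neural route) and 0.27 (IEC-CiPSC against ESC). With only the 2 groups compared fitted, fewer members were tested. For NSC-CiPSC against ESC, 0 of 15 collagens and 151 of 14120 genes (1.07%) were called (collagen median 0.18). For IEC-CiPSC against ESC, 7 of 18 collagens and 1201 of 13848 genes (8.67%) were called (collagen median 0.86). Such a fit gave a collagen median of -0.71 between origins. Leaving out each line gave 187 to 727 calls over all genes (0 to 1 collagens) for NSC-CiPSC against ESC, 153 to 897 (0 to 7) for IEC-CiPSC against ESC and 98 to 795 (0 to 6) between origins. Collagen medians then ran from 0.020 to 0.058 on the neural route, from -3.86 to -3.63 on the intestinal route, from 0.25 to 0.30 for IEC-CiPSC against ESC and from -0.24 to -0.13 between origins. Apart from the members tested, the cause of these shifts was not tested. No paired analysis was possible because the groups compared share fewer than 2 replicate numbers.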
